A study of Homo sapiens with 4 samples.

Results

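The genes described here are ATF4 and the genes of the amino-acid response that it is known to drive, as a list of 34 gene names covering ATF4 and its partner factors, amino-acid synthesis, amino-acid transport and stress effectors. Of these names, 32 matched a row of the expression table by symbol, and 2, ASNS and NUPR1, are not analysed here. CBS and its near-identical copy CBSL were summed, which leaves 31 genes out of the 17755 genes of the table. The rule is one of function and has no measured value in it, but the members were chosen with earlier results of these data known, so their shares beside those of all genes are descriptions. ATF4 itself (ENSG00000128272) lies on the plus strand of chromosome 22 of GRCh38 from 39519695 to 39522685.

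SK-MEL-28 and A375, both established human melanoma lines, were transfected with siLINC00622, an siRNA reagent directed at the long non-coding RNA LINC00622, or with the control reagent siNC. All 4 cultures stood for 6 h without serum and for 24 h with serum before the RNA was taken, so serum withdrawal and return are shared by the control and the knockdown. Each of the 4 groups, SK-MEL-28 siNC, SK-MEL-28 siLINC00622, A375 siNC and A375 siLINC00622, holds 1 library. With 1 library per condition, no test within a line was possible, and a difference between 2 libraries cannot be told apart from the spread between cultures. The labels name the source as melanoma tissue beside each line, and the libraries are treated here as the cell lines.

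ATF4 is a transcription factor whose messenger RNA is translated more when eIF2, the factor that brings the initiator tRNA to the ribosome, is phosphorylated. The kinases that do so respond to uncharged tRNA, unfolded protein in the endoplasmic reticulum, double-stranded RNA or a lack of heme, and mTORC1 also raises ATF4 protein. ATF4 pairs with C/EBP proteins and other bZIP factors on composite sites called CARE or AARE, and its known targets import and make amino acids, charge and export tRNA, and limit or end the stress response. The RNA level of ATF4 is therefore not a measure of its protein, which these data do not hold.

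The CARE core, searched as TGATGNAA on both strands, was looked up in the RefSeq promoter windows of GRCh38.p14, which run from 250 bases before to 50 bases after an annotated start. Entries were found for 26 of the 32 listed names, with 42 windows in all, because some genes have several starts. ALDH1L2, CBSL, PSPH, PYCR1, SHMT2 and SLC7A11 had no entry. The core was present in 7 of the 42 windows (16.7%), each of a different gene, and in 1270 of all 35116 windows (3.62%). These 7 are shown because they are the members whose promoter carries the letters that ATF4 and C/EBP factors are known to bind. They are printed 5′ to 3′ on the strand of the gene, with the core or its reverse complement in capitals. TGATGCAA alone, a form that TGATGNAA includes, was in 4 member windows (9.52%) and in 0.866% of all windows.
ATF3, chr1:212565205-212565234: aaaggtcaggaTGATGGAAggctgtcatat
SLC1A4, chr2:64989381-64989410: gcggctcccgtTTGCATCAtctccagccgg
SLC3A2, chr11:62881725-62881748: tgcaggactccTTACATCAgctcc
SLC7A1, chr13:29595663-29595692: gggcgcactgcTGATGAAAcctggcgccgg
CHAC1, chr15:40953251-40953280: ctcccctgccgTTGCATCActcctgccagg
CEBPG, chr19:33374060-33374089: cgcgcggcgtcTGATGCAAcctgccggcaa
SLC1A5, chr19:46784893-46784922: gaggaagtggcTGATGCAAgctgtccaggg

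SLC7A1 and SLC1A5 lie on the minus strand of their chromosomes, and the other 5 on the plus strand. The core began 191 bases before the annotated start in ATF3, 209 in CHAC1, 97 in SLC1A5, 42 in CEBPG and 7 in SLC1A4. In SLC3A2 and SLC7A1 it lay after the start, by 37 and 7 bases. For these 7 genes, the log2 ratios between the libraries are given with their role groups, and they ran from -0.25 (CEBPG) to 0.66 (ATF3) in SK-MEL-28 and from -0.54 (CHAC1) to 0.09 (SLC3A2) in A375. A match of letters is a description of the window and does not show a bound site.

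Library totals ran from 31269923 to 36384819 counts, and mitochondrially encoded genes took between 3.0% and 5.72% of them, more in both SK-MEL-28 libraries than in either A375 library. In SK-MEL-28, the targeted LINC00622 had 309 counts with siNC and 135 after its knockdown (log2 ratio -1.21, interval -1.53 to -0.93), and 135 and 86 in A375 (-0.84, interval -1.27 to -0.46). All 9 melanocytic markers had counts in every library, with summed levels of 8690 and 9120 CPM (counts scaled to library size) in SK-MEL-28 and 565 and 690 CPM in A375. Single genes made up much of these sums. SOX10, a neural crest factor, was at 483 and 608 CPM in A375, and PMEL, the amyloid protein of pigment granules, was at 3450 and 4160 CPM in SK-MEL-28 and at 8.22 and 8.63 CPM in A375. Other markers did not share that direction, such as DCT (2570 and 2290 CPM) and S100B (265 and 175 CPM) in SK-MEL-28. Of 14 markers of other cells, 4 were listed, with sums between 6.85 and 32.8 CPM, and KRT14 and PDGFRB made up most of the A375 sums. The part of these differences in the results below was not tested.

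The first comparison asked how each member differed between siLINC00622 and siNC in each line. In SK-MEL-28 the members tended to stand higher with siLINC00622, led by the leucine transporter SLC7A5, the stress factor ATF3 and the cysteine-making enzyme CTH. In A375 the same list was centred slightly below 0, and ATF4 itself was lower there, although it was higher in SK-MEL-28. SHMT2 and MTHFD2 of mitochondrial one-carbon metabolism were lower with siLINC00622 in both lines, while ALDH1L2, also of that metabolism, was higher in both. These are differences between single libraries.

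Values are log2 ratios of siLINC00622 over siNC after TMM scaling, a trimmed-mean correction of library size, within the line, with a prior count of 2. Each has a 95% Clopper-Pearson interval that covers counting error only. In SK-MEL-28, 22 of 31 members had a log2 ratio above 0 (background over all genes 49.5%), and the median over the members was 0.18, beside 0.0 over the 15442 genes with at least 10 counts. In A375, 12 of 31 were above 0 (background 50.7%), and the median was -0.06, beside 0.0 over 16020 genes. All 31 members reached 10 counts in both lines and so enter both counts.

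Past 1.5-fold, the size of change that the study screened for, 3 of 31 members (9.68%) stood higher with siLINC00622 in SK-MEL-28, beside 4.56% of all genes, and 0 stood lower, beside 6.49%. In A375, 0 members passed 1.5-fold upward, beside 4.51% of all genes, and 0 downward, beside 4.34%. Just inside the threshold, at a log2 ratio of 0.58, stood CTH in SK-MEL-28 at 0.61. Just outside it stood SLC3A2 in SK-MEL-28 at 0.53 and, in A375, ATF5 at -0.58, which rounds to 1.5-fold lower, and CHAC1 at -0.54. ATF5 crossed 1.5-fold under 5 other ways of scaling or counting. With FPKM, which also divides by gene length, and a pseudocount of 1, only SLC7A5 passed in SK-MEL-28 (0.97). ATF3 then stood at 0.34 and CTH at 0.53.

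Counting error was small beside many of these ratios. In SK-MEL-28 the interval lay above 0 for 17 members (54.8%, background 22.9%) and below 0 for 6 (19.4%, background 24.0%). In A375 it lay above 0 for 7 (22.6%, background 23.8%) and below 0 for 12 (38.7%, background 22.0%). The share above 0 in A375 and the share below 0 in SK-MEL-28 are thus near the background of all genes. Intervals narrow as counts rise, and this background of genes with at least 10 counts was not matched to the members in counts. The part of depth in these shares was not tested.

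**Figure D1:**
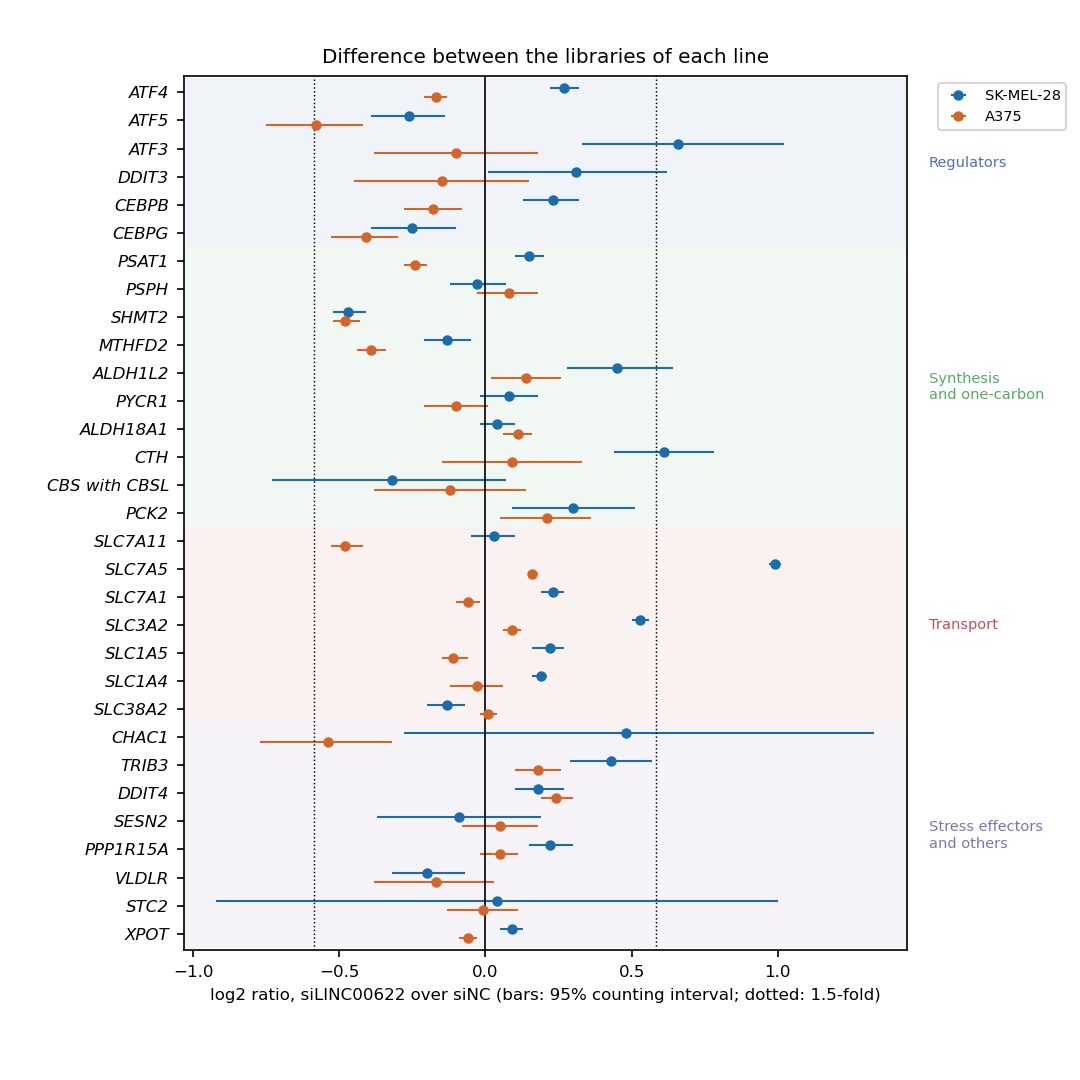
Log2 ratio of siLINC00622 over siNC for each of the 31 members, in SK-MEL-28 (blue) and A375 (orange), grouped by role. Bars are 95% counting intervals from 1 library per condition, and dotted lines mark 1.5-fold. SLC7A5, ATF3 and CTH pass the upper line in SK-MEL-28, and no A375 point passes either line.

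The regulators came first. ATF4 stood at 184 CPM with siNC and 220 CPM with siLINC00622 in SK-MEL-28, and at 313 and 276 CPM in A375. It was the higher of the libraries with the knockdown in SK-MEL-28 (log2 ratio 0.27, interval 0.22 to 0.32) and the lower in A375 (-0.17, interval -0.21 to -0.13). Both A375 libraries stood above both SK-MEL-28 libraries. A copy of ATF4 elsewhere in the genome, ATF4P3, is listed with 13 to 23 counts.

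CEBPB, a bZIP partner of ATF4, gave the same arrangement of signs, with 50.7 and 58.8 CPM in SK-MEL-28 and 52.5 and 45.9 CPM in A375 (log2 ratios 0.23 and -0.18). CEBPG, another partner, whose promoter holds the TGATGCAA shown above, was lower with siLINC00622 in both lines. Its level was 26.9 and 22.5 CPM in SK-MEL-28 and 40.6 and 30.3 CPM in A375 (log2 ratios -0.25 and -0.41).

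ATF5, a relative of ATF4 that is itself induced by translation under stress, was also the lower of the libraries in both lines. It was at 32.6 CPM with siNC and 26.9 CPM with siLINC00622 in SK-MEL-28 (log2 ratio -0.26, interval -0.39 to -0.14). In A375 it was at 22.8 and 15.1 CPM (-0.58, interval -0.75 to -0.42), the lowest ratio of any member in that line. Exons of ATF5 overlap NUP62 on the opposite strand, which had 3769 and 3681 counts in SK-MEL-28 and 3385 and 3337 counts in A375, and it is not stated whether the counting used strand.

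ATF3, which dampens or extends the response depending on its partner, was a low gene in all 4 libraries. In SK-MEL-28 its counts were 116 with siNC and 189 with siLINC00622, or 3.50 and 5.53 CPM (log2 ratio 0.66, interval 0.33 to 1.02). In A375 it had 208 and 224 counts, or 6.65 and 6.16 CPM, and the interval of the ratio held 0 (-0.10, interval -0.38 to 0.18). The A375 libraries were therefore both above the SK-MEL-28 libraries, and the gap between the lines was narrower with the knockdown.

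DDIT3 (CHOP), the factor linked to cell death under lasting stress, stood at 4.83 and 5.94 CPM in SK-MEL-28 and 5.82 and 5.22 CPM in A375. Its ratio in SK-MEL-28 had an interval that only just cleared 0 (0.31, interval 0.01 to 0.62), and that in A375 spanned 0 (-0.15, interval -0.45 to 0.15). DDIT3 exons overlap those of MBD6 and MARS1 on the opposite strand. MBD6 had 1023 and 1680 counts in SK-MEL-28 and 2107 and 2965 counts in A375, and MARS1 had 5680 and 5763 counts in SK-MEL-28 and 11306 and 11247 counts in A375. The part of reads from either in the DDIT3 counts was not tested. Over the 6 regulators the median log2 ratio was 0.25 in SK-MEL-28, with 4 above 0, and -0.18 in A375, with 0 above 0.

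Among the synthesis genes, the enzymes that feed mitochondrial one-carbon metabolism did not share a direction. SHMT2, which turns serine into glycine in mitochondria, was at 186 CPM with siNC and 133 CPM with siLINC00622 in SK-MEL-28. In A375 it was at 277 and 198 CPM. The log2 ratios were nearly equal, at -0.47 (interval -0.52 to -0.41) and -0.48 (interval -0.52 to -0.43), and in each line the siNC library was the higher.

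MTHFD2, the folate enzyme that follows SHMT2 in mitochondria, was at 83.4 and 75.6 CPM in SK-MEL-28 (log2 ratio -0.13, interval -0.21 to -0.05) and at 212 and 161 CPM in A375 (-0.39, interval -0.44 to -0.34). Its levels in the A375 libraries were both above those of SK-MEL-28. ALDH1L2, which oxidises formyltetrahydrofolate in mitochondria, went the other way, with 13.1 and 17.9 CPM in SK-MEL-28 (0.45, interval 0.28 to 0.64) and 33.8 and 37.0 CPM in A375 (0.14, interval 0.02 to 0.26). With FPKM and a pseudocount of 1, its SK-MEL-28 ratio was 0.27. ALDH1L2 shares exon sequence with C12orf45 on the opposite strand, which had 683 and 633 counts in SK-MEL-28 and 553 and 736 counts in A375.

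PSAT1, the transaminase of serine synthesis, was one of the most abundant members per length. It was at 199 and 219 CPM in SK-MEL-28 and at 349 and 293 CPM in A375, with log2 ratios of 0.15 (interval 0.10 to 0.20) and -0.24 (interval -0.28 to -0.20). PSPH, the phosphatase that completes the same route, had ratios of -0.03 and 0.08, and both intervals held 0.

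The sulfur branch differed between its enzymes. CTH, which releases cysteine from cystathionine, was at 14.6 CPM with siNC and 22.1 CPM with siLINC00622 in SK-MEL-28 (log2 ratio 0.61, interval 0.44 to 0.78), and at 8.31 and 8.79 CPM in A375 (0.09, interval -0.15 to 0.33). Both SK-MEL-28 libraries were above both A375 libraries. CBS with CBSL, the step before CTH, was at 3.56 and 2.81 CPM in SK-MEL-28 and 7.90 and 7.23 CPM in A375, and both ratios had intervals that held 0 (-0.32 and -0.12). With FPKM, the A375 ratio was -0.26 at a pseudocount of 1 and -0.42 at a pseudocount of 0.1. There the FPKM of the CBS and CBSL rows, each divided by its own gene length, were summed. That ratio therefore also depends on how reads were split between the rows, and it is not read as a change of the pair.

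Taken apart, the rows of CBS and CBSL differed in opposite directions in A375. The row named CBS had 88 counts with siNC and 202 with siLINC00622, and the row named CBSL had 159 and 61, so CBSL took 64.4% and 23.2% of the pair. The total was 247 and 263. The SK-MEL-28 libraries gave CBSL 3 counts apiece, beside 115 and 93 for CBS. As the copies are nearly identical, how reads were assigned to 1 or the other depends on the counting, and only the sum is read as a level.

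In the proline branch, PYCR1 was at 48.6 and 50.9 CPM in SK-MEL-28 and at 38.6 and 35.8 CPM in A375, with ratios (0.08 and -0.10) whose intervals held 0. ALDH18A1, which makes the precursor, was at 132 and 135 CPM in SK-MEL-28 and at 159 and 170 CPM in A375, with log2 ratios of 0.04 and 0.11. PCK2, the mitochondrial phosphoenolpyruvate carboxykinase, stood higher with siLINC00622 in both lines, from 10.5 to 12.8 CPM in SK-MEL-28 (0.30) and from 18.8 to 21.5 CPM in A375 (0.21). Over the 10 synthesis genes the median log2 ratio was 0.06 in SK-MEL-28, where 6 were above 0, and -0.01 in A375, where 5 were above 0.

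The transporters held the largest ratio of any member. SLC7A5 (LAT1), which imports leucine and other large neutral amino acids, was at 802 CPM with siNC and 1578 CPM with siLINC00622 in SK-MEL-28. In A375 it was at 1835 and 2038 CPM. The SK-MEL-28 siNC library was the lowest of the 4, and the siLINC00622 library of that line stood between it and both A375 libraries. The log2 ratio was 0.99 (interval 0.97 to 1.01) in SK-MEL-28, rank 74 from the top among 12743 genes with at least 50 counts, and 0.16 (interval 0.15 to 0.18) in A375, rank 3454 of 13504.

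SLC3A2, the heavy chain that SLC7A5 and SLC7A11 need at the membrane, was at 380 and 545 CPM in SK-MEL-28 and at 542 and 572 CPM in A375. Its log2 ratio was 0.53 (interval 0.50 to 0.56) in SK-MEL-28 and 0.09 (interval 0.06 to 0.12) in A375, and here too the SK-MEL-28 siNC library was lowest. By FPKM, which also divides by gene length, the value of SLC7A5 was 2.83 times that of SLC3A2 in the siNC library of SK-MEL-28 and 3.89 times with siLINC00622. In A375 the same ratio of FPKM values was 4.54 and 4.78.

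SLC7A11, the cystine importer of the antioxidant defence, was at 82.3 and 83.1 CPM in SK-MEL-28 and at 188 and 134 CPM in A375. The SK-MEL-28 libraries differed by no more than counting error (log2 ratio 0.03, interval -0.05 to 0.10), while the siNC library of A375 stood above the knockdown (-0.48, interval -0.53 to -0.42). It was the transporter with the lowest ratio in A375.

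SLC7A1, the arginine and lysine transporter, was at 245 and 284 CPM in SK-MEL-28 and at 359 and 342 CPM in A375, with log2 ratios of 0.23 and -0.06. SLC1A5 (ASCT2), the glutamine transporter, was at 154 and 177 CPM in SK-MEL-28 and at 255 and 235 CPM in A375, with ratios of 0.22 and -0.11. In both genes the siLINC00622 library was the higher in SK-MEL-28 and the lower in A375, by a fold of 1.04 and 1.08 in A375.

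SLC1A4, which carries alanine, serine and cysteine, was at 543 and 612 CPM in SK-MEL-28 (log2 ratio 0.19) and at 64.5 and 62.8 CPM in A375 (-0.03, interval -0.12 to 0.06). SLC38A2 (SNAT2), a transporter of small neutral amino acids, had the reverse order of lines, with 130 and 117 CPM in SK-MEL-28 (-0.13) and 503 and 504 CPM in A375 (0.01). Over the 7 transporters the median was 0.22 in SK-MEL-28, with 6 above 0, and -0.03 in A375, with 3 above 0.

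Of the stress effectors, CHAC1, which breaks down glutathione, had the widest gap between the lines in its ratio. It had only 24 and 35 counts in SK-MEL-28, or 0.725 and 1.02 CPM, and the interval of the ratio was wide (log2 ratio 0.48, interval -0.28 to 1.33). In A375 it had 373 and 295 counts, or 11.9 and 8.11 CPM, and the knockdown library was the lower (-0.54, interval -0.77 to -0.32).

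TRIB3, a pseudokinase that holds ATF4 activity in check, was at 21.8 and 29.0 CPM in SK-MEL-28 (log2 ratio 0.43, interval 0.29 to 0.57) and at 75.5 and 85.0 CPM in A375 (0.18, interval 0.10 to 0.26). DDIT4 (REDD1), an inhibitor of mTORC1, was at 60.7 and 68.2 CPM in SK-MEL-28 (0.18) and at 152 and 179 CPM in A375 (0.24). Both genes were higher with siLINC00622 in each line, and both were higher in A375 than in SK-MEL-28. SESN2, a leucine-binding inhibitor of the same pathway, differed by no more than counting error, at 6.77 and 6.29 CPM in SK-MEL-28 (-0.09) and 27.4 and 28.2 CPM in A375 (0.05).

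PPP1R15A (GADD34), the phosphatase subunit that reverses eIF2 phosphorylation, was at 83.0 and 96.0 CPM in SK-MEL-28 (log2 ratio 0.22) and at 105 and 108 CPM in A375 (0.05). XPOT, which exports tRNA from the nucleus, had log2 ratios of 0.09 and -0.06, with narrow intervals that excluded 0, and its copy XPOTP1 had 72 to 118 counts. VLDLR, a lipoprotein receptor, had ratios of -0.20 and -0.17, with an A375 interval that held 0. STC2, a secreted glycoprotein, had 20 and 21 counts in SK-MEL-28 and 1032 and 1185 counts in A375, and neither line showed a difference between its libraries beyond counting error. Over these 8 genes the median was 0.14 in SK-MEL-28, with 6 above 0, and 0.02 in A375, with 4 above 0.

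**Figure D2:**
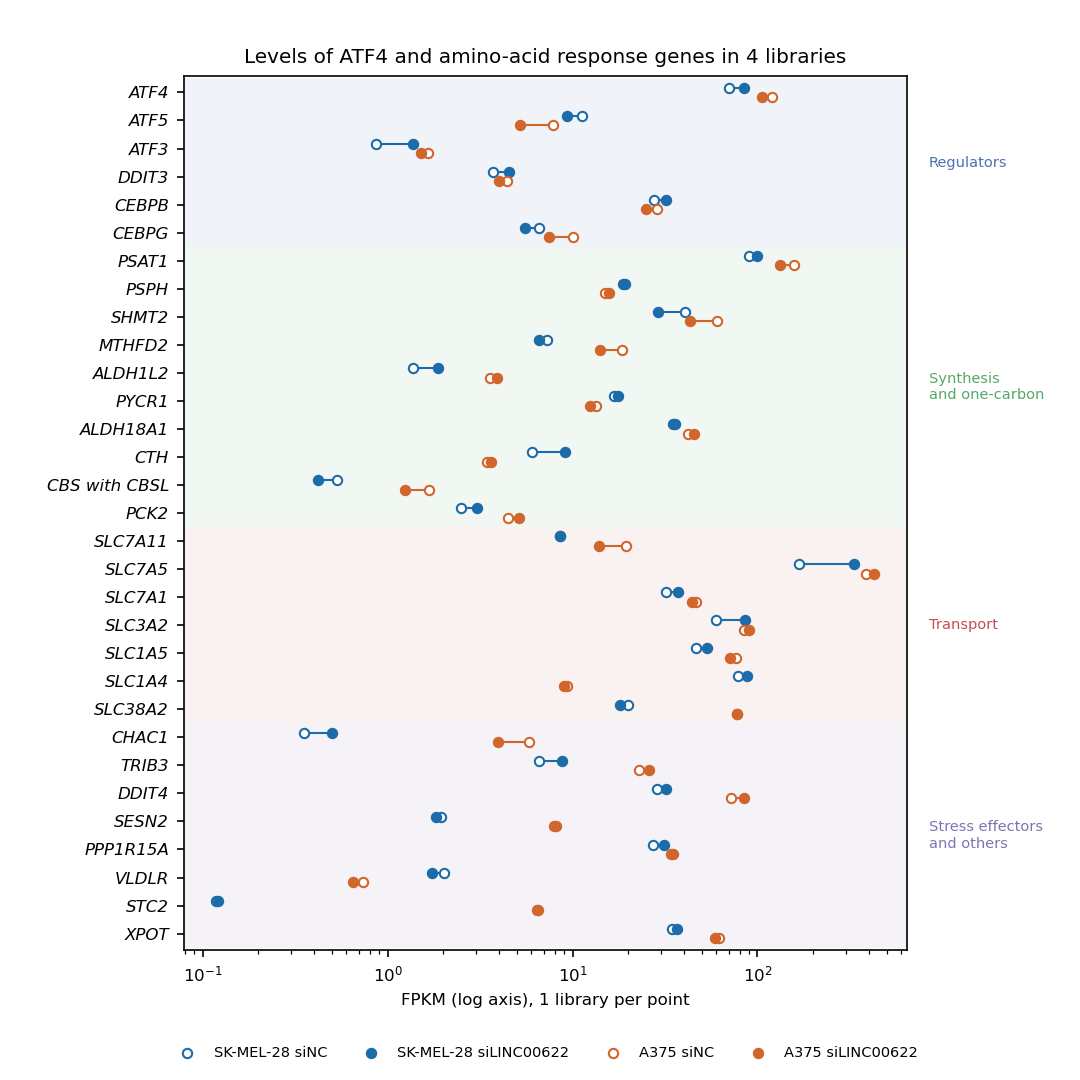
FPKM (log axis) of each member in the 4 libraries, with open circles for siNC and filled circles for siLINC00622, and 1 library per point. SLC7A5 has the highest FPKM in every library, and the 2 SK-MEL-28 points of SLC7A5 lie far apart (168 and 331 FPKM) while the A375 points lie close (385 and 428 FPKM).

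Levels between genes were compared only per length. By FPKM, SLC7A5 was the highest member in every library and PSAT1 the next, from 90.3 to 158 FPKM. ATF4 ranked between the third and the fifth, with 70.4 and 84.3 FPKM in SK-MEL-28 and 120 and 106 FPKM in A375. At the low end, STC2 (0.119 and 0.121 FPKM) was last in SK-MEL-28 and VLDLR (0.740 and 0.653 FPKM) last in A375. The order of genes whose FPKM lie close together rests on the lengths the authors used, which are not stated.

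The second question was whether the members differed in the same direction in both lines. The log2 ratio was greater in SK-MEL-28 than in A375 for 24 of 31 members (77.4%), beside a background of 47.8% of 14721 genes. Of the members, 13 were above 0 in SK-MEL-28 and below 0 in A375 (41.9%, background 18.1%), and 3 were the reverse (9.68%, background 19.7%). Above 0 in both lines were 9 (29.0%, background 30.9%), a share near that of all genes, and below 0 in both were 6 (19.4%, background 31.3%). By role, all 6 regulators, 7 of 10 synthesis genes, 6 of 7 transporters and 5 of 8 stress effectors had the greater ratio in SK-MEL-28.

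With counting error taken into account, 6 members (19.4%) had an interval above 0 in SK-MEL-28 and below 0 in A375, beside 2.55% of all genes. They were ATF4, CEBPB, PSAT1, SLC7A1, SLC1A5 and XPOT, with differences between the ratios from 0.15 (XPOT) to 0.45 (ATF4). The reverse pattern was found in 0 members, beside 3.86% of all genes. Intervals above 0 in both lines were found for 6 members (19.4%, background 11.0%), which were ALDH1L2, PCK2, SLC7A5, SLC3A2, TRIB3 and DDIT4. Intervals below 0 in both lines were found for 4 (12.9%, background 11.9%), which were ATF5, CEBPG, SHMT2 and MTHFD2. These backgrounds were not matched to the members in counts, on which the width of an interval depends.

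The largest differences between the ratios of the lines, SK-MEL-28 minus A375, were 1.02 for CHAC1 (counting interval 0.24 to 1.81), 0.83 for SLC7A5 (0.80 to 0.86) and 0.77 for ATF3 (0.34 to 1.20). CTH followed at 0.52 (0.23 to 0.81) and SLC7A11 at 0.51 (0.41 to 0.60). The smallest were those of SHMT2 (0.01, -0.06 to 0.08) and VLDLR (-0.03, -0.26 to 0.21). None of these differences has a replicate check, since each line holds 1 library per treatment.

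**Figure D3:**
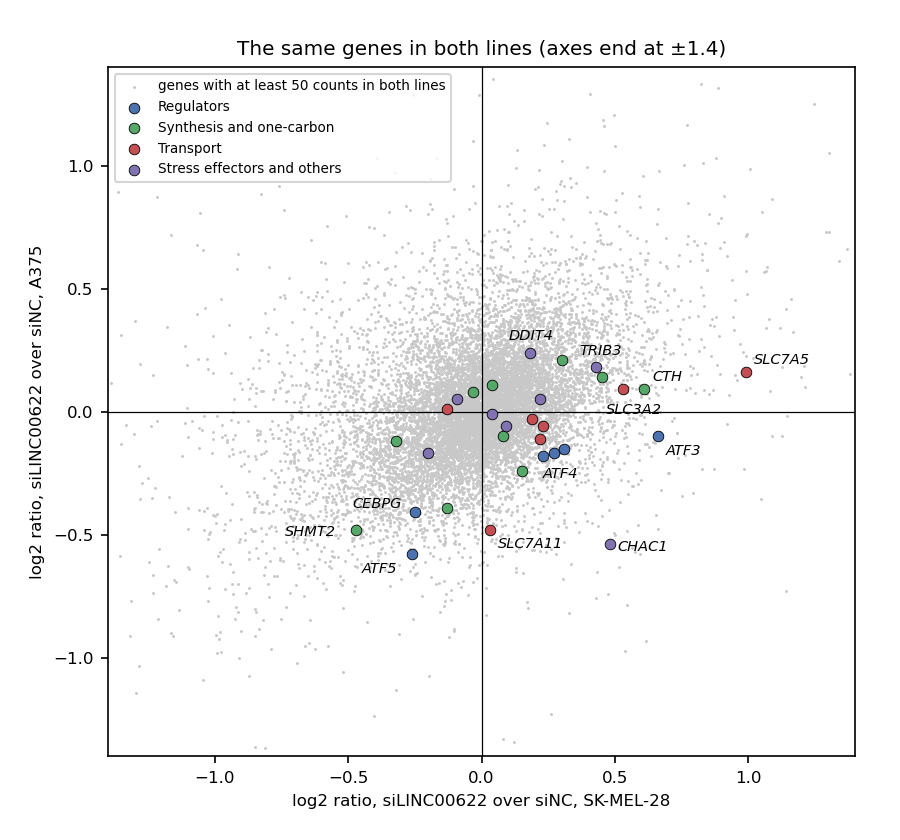
Log2 ratio of siLINC00622 over siNC in SK-MEL-28 (horizontal) against A375 (vertical), for members coloured by role and, in grey, other genes with at least 50 counts in both lines. Points below the horizontal line and right of the vertical one, such as ATF4, ATF3 and CHAC1, were higher with the knockdown in SK-MEL-28 and lower in A375, and genes past the ends of the axes are not drawn. The counting intervals of ATF3 in A375 and of CHAC1 in SK-MEL-28 held 0.

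A single test of the treatment is possible when the 2 lines serve as the replicates, with the line as a term in the fit. It leaves 1 residual degree of freedom, and its spread comes from the difference of response between the lines. The edgeR fit draws the spread of each gene toward values shared across genes. A p-value of a gene thus does not rest on its own difference between the lines alone. In edgeR's quasi-likelihood test with Benjamini-Hochberg adjustment over 16257 genes, 0 of 31 members passed an adjusted p of 0.05, beside 0.08% of all genes called higher with siLINC00622 and 0.148% called lower. At an unadjusted p under 0.05 stood 9 members, of which 5 were higher and 4 lower, beside 14.6% of all genes. DESeq2 with the same terms gave an adjusted p to 8805 genes, 26 members among them, and called more genes overall (1.64% higher and 1.79% lower). It called 2 of the 26 members, SHMT2 (lower, adjusted p = 0.00609) and SLC7A5 (higher, adjusted p = 0.0395).

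SHMT2 came nearest in the edgeR fit, with a log2 difference of -0.46 (SE 0.08, adjusted p = 0.099), lower with siLINC00622 in 2 of 2 lines. With the line kept as a term, its adjusted p in edgeR ran from 0.0667 without a filter on low counts to 0.134 with relative log expression factors, and without that term it was 1.0. SLC7A5 had a log2 difference of 0.59 (SE 0.18, edgeR adjusted p = 0.218), and ATF5 one of -0.41 (SE 0.12, edgeR adjusted p = 0.21). ATF4, which differed in sign between the lines, had a log2 difference of 0.06 (SE 0.12, edgeR adjusted p = 0.862).

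The same fit compared the levels of the members between the lines, with 2 libraries per line that differ in treatment. The spread behind these p-values again comes from the difference of treatment response between the lines, drawn toward values shared across genes. It is not the spread between repeat cultures of a line, and each line is a single line. By edgeR with an adjusted p under 0.05 and over 2-fold, 12 of 31 members were called. Higher in SK-MEL-28 were 3 (9.68%, background 17.7%), and higher in A375 were 9 (29.0%, background 19.2%). Without the fold limit, 24 of 31 passed, 6 of them higher in SK-MEL-28 (19.4%, background 33.8%) and 18 higher in A375 (58.1%, background 35.1%).

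SLC1A4, the neutral amino acid carrier, was the member most in favour of SK-MEL-28, with a log2 difference of 3.35 (SE 0.09, edgeR adjusted p = 9.67e-07). VLDLR (1.59) and CTH (1.24) were the others higher there. STC2 was the member most in favour of A375, at -5.57 (SE 0.17, edgeR adjusted p = 1.24e-06). CHAC1 (-3.32), SESN2 (-1.92), SLC38A2 (-1.86), TRIB3 (-1.51), DDIT4 (-1.19), CBS with CBSL (-1.09), MTHFD2 (-1.05) and ALDH1L2 (-1.04) were also higher in A375.

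Of the 8 stress effectors, 5 were called higher in A375 and 1 higher in SK-MEL-28. Of the 6 regulators, 0 were called in either direction, and 3 passed without the fold limit. Beside these counts, 19.2% of all genes were called higher in A375 and 17.7% higher in SK-MEL-28. The difference between the role groups was not tested. ATF4 was 1.30-fold higher in A375 (log2 difference -0.38, SE 0.12, edgeR adjusted p = 0.0246). TMM scaling over the 4 libraries set these line differences 0.17 higher, in favour of SK-MEL-28, than CPM does at the median gene. All 12 called members were over 2-fold on the CPM scale too, and 1 member that was not called, DDIT3, had the opposite direction there.

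**Figure D4:**
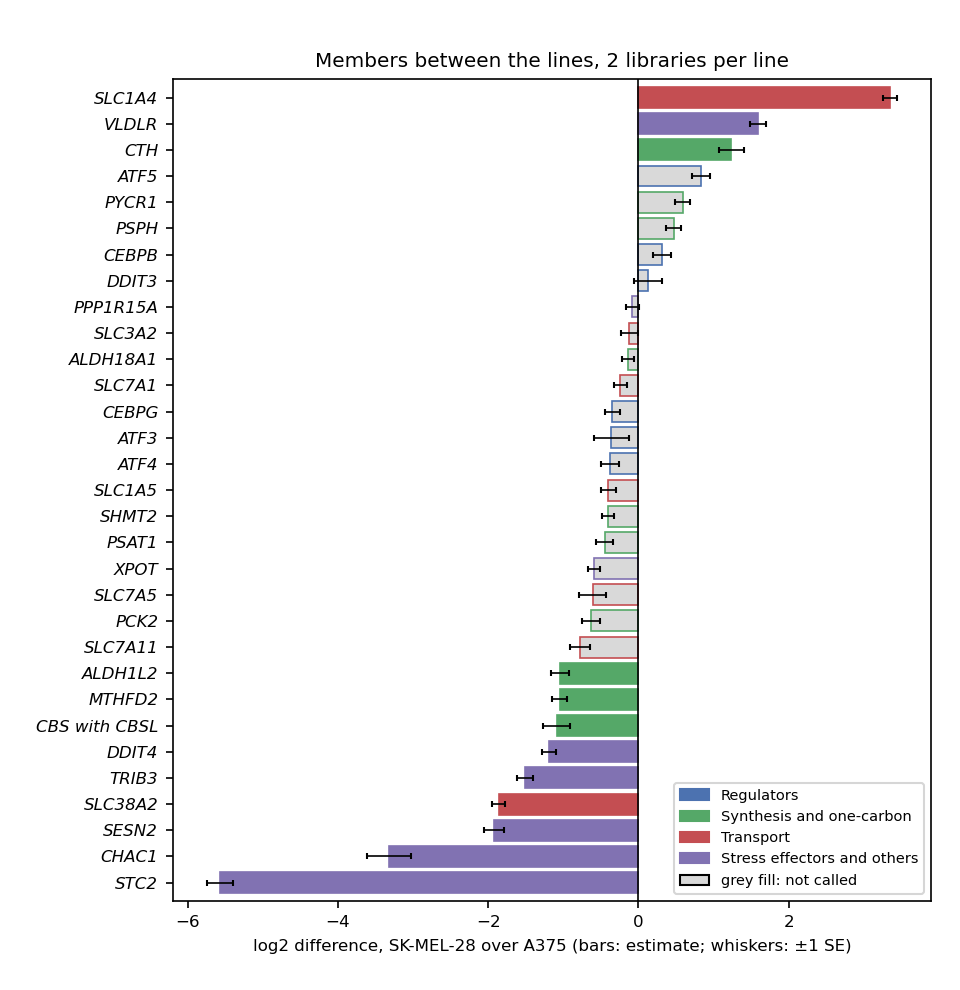
Log2 difference of each member between SK-MEL-28 and A375, 2 libraries per line, with bars to the edgeR estimate and whiskers of 1 SE. Coloured bars were called (adjusted p under 0.05 and over 2-fold) and grey bars were not, and the bars run from -5.57 (STC2) to 3.35 (SLC1A4).

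Other genes of the pathway were taken from 4 lists, whose counts past 1.5-fold stand beside an SK-MEL-28 background of 4.56% of all genes upward and 6.49% downward, and an A375 background of 4.51% and 4.34%. At those shares, a count of 0 in a list of about 20 genes is near the background. The first holds 20 genes for eIF2, its kinases and their regulators, which act upstream of ATF4. In SK-MEL-28 and A375 their medians were 0.02 and -0.03, and 0 passed 1.5-fold in either line. DNAJC3, an inhibitor of eIF2 kinases in the endoplasmic reticulum, had the largest ratio, 0.57 in SK-MEL-28 and 0.35 in A375. EIF2AK4 (GCN2), the kinase that senses uncharged tRNA, was lower with siLINC00622 in SK-MEL-28 (-0.28, interval -0.34 to -0.22) and higher in A375 (0.20, interval 0.15 to 0.25). IMPACT, an inhibitor of that kinase, had ratios of -0.04 and 0.30.

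The 20 cytosolic aminoacyl-tRNA synthetases, which charge tRNA and include known ATF4 targets, had medians of -0.01 and -0.02 in the lines, and 0 passed 1.5-fold. Their ratios ran from -0.23 (VARS1) to 0.24 (NARS1) in SK-MEL-28 and from -0.22 (MARS1) to 0.09 in A375. FARSB was lower with siLINC00622 in both lines (-0.22 and -0.17).

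Of 41 other amino-acid and stress-response genes, 35 were listed, and their medians were 0.0 and -0.02. In SK-MEL-28, where 33 reached 10 counts, 2 passed 1.5-fold upward and 3 downward. In A375, 1 of 35 passed upward and 2 downward. GDF15, a stress hormone, had 524 and 1021 counts in SK-MEL-28 (log2 ratio 0.93, interval 0.78 to 1.09) and 265 and 321 in A375 (0.07, interval -0.17 to 0.31). SESN3, a sestrin like SESN2, had 1975 and 1106 counts in SK-MEL-28 (-0.87, interval -0.98 to -0.76) and 127 and 157 in A375 (0.10, interval -0.25 to 0.45).

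TRIB2, a pseudokinase related to TRIB3, was higher with siLINC00622 in both lines, with log2 ratios of 0.44 and 0.70. RAB39B, a small GTPase, had 73 and 42 counts in A375 (-0.97, interval -1.59 to -0.44) and 8 and 5 in SK-MEL-28. The 24 listed chaperones and unfolded protein response genes had medians of 0.09 in both lines, and 0 passed 1.5-fold. In SK-MEL-28, 18 were above 0 and 6 below, and in A375, 20 were above and 4 below (background above 0, 49.5% and 50.7%). The interval lay above 0 for 13 and below 0 for 4 in SK-MEL-28. In A375 it lay above 0 for 13 and below 0 for 2. For all genes, 22.9% and 23.8% of intervals lay above 0 in the lines, a background not matched to this list in counts. In that list HERPUD1, of the degradation machinery of the endoplasmic reticulum, had ratios of 0.54 and 0.09, and the chaperone DNAJB9 had -0.26 and -0.44.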

How the data were processed

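The 4 libraries, 1 per line and treatment, were grouped by their labels. The counts the authors deposited are raw reads per gene. The deposited CPM are counts scaled to the library total. The deposited FPKM are also divided by a gene length that is not stated, and the TPM the authors deposited were not used. The submitters' processing notes name HISAT2, TopHat2, Bowtie2, HISAT and hg19 without role or version. The counter, strand setting and annotation are not given in the sources used here. Gene positions and exon overlaps came from GENCODE 29 on GRCh38, which holds 17332 of the 17755 identifiers, and promoters from RefSeq. No coordinate of the authors' build was used. Between 99.7% and 99.8% of each library total fell on listed genes.

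Counts were scaled within each line by TMM (edgeR 4.0.16, R 4.3.3) on the library totals, and ratios used a prior count of 2. Intervals (95%, Clopper-Pearson, Python 3.11.15 with scipy 1.17.1) cover counting error only, since reads carry no molecular identifiers. Medians used genes that reached 10 counts in either library of a line. The paired fit was edgeR's quasi-likelihood test with line and treatment as terms after filterByExpr. Pairing comes from the cell line. In simulated counts with a dispersion of 0.01, the paired fit called 100% of the genes planted at log2 changes of -2, -1, 1 and 2 (50 each of 16260) and 7 of 16060 unchanged genes. No larger dispersion was simulated, so this recovery is not known to hold for cultures that vary more. The planted genes were chosen for higher counts, and each change was the same in both lines. Smaller changes, and changes that differ between the lines, were not simulated.

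The members and lists were chosen with earlier results of these data known. The text names every member, LINC00622 and, from each other list, the 2 genes with the largest ratio in each line among those with at least 50 counts. Alternatives were library totals, DESeq2 1.42.0 factors and tests, TMM over 4 libraries, median centring, FPKM with pseudocounts of 1 and 0.1, a prior count of 0.5, filters, other fold limits, and CBS and CBSL apart. Some members, among them ATF5, DDIT3, CEBPB, SHMT2, ALDH1L2 and SLC7A5, have exons that overlap a listed gene on the opposite strand, and the kit is not stated to keep strand.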

Additional observations from a re-analysis of the deposited data

Results flagged for a closer look

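In 6 of 31 members the library with siLINC00622 was higher in SK-MEL-28 and lower in A375 with counting intervals on opposite sides of 0. This share is 19.4%, beside 2.55% of all genes, a background not matched to the members in counts. Intervals narrow as counts rise, and the part of depth in this gap was not tested. The difference between the log2 ratios, SK-MEL-28 minus A375, was 0.45 for ATF4, 0.41 for CEBPB, 0.39 for PSAT1, 0.32 for SLC1A5, 0.29 for SLC7A1 and 0.15 for XPOT. With 1 library per condition the difference between the lines was not tested.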

How the results depend on the processing

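The count of members past 1.5-fold in SK-MEL-28, 3 in the main setting, was 1 with FPKM and a pseudocount of 1, 9 at a log2 limit of 0.32 (7 higher, 2 lower), 0 at 2-fold, and 0 when the exact test at an assumed dispersion of 0.1 was also required. Beside them, those limits called 13.5%, 1.07% and 0.22% of all genes higher and 16.0%, 1.72% and 0.427% lower. In A375 the count was 0 in the main setting. ATF5 alone passed, as lower, with library totals, DESeq2 size factors, median centring, FPKM with a pseudocount of 0.1 or a prior count of 0.5. With CBS and CBSL apart the count was 2, with 1 higher (CBS) and 1 lower (CBSL). At a log2 limit of 0.32 it was 6, all lower, where 13.4% of all genes were higher and 13.0% lower. The medians kept their sign under every setting run, from 0.15 to 0.19 in SK-MEL-28 and from -0.07 to -0.04 in A375. Scalings moved the median of all genes by at most 0.02, and only STC2 in A375 changed sign. In the fit paired by line, 0 members were called with the line as a block, 0 with no replicate block, and 2 of 26 with DESeq2, which called 1.64% of 8805 genes higher and 1.79% lower, and the cause was not tested. The line difference gave 12 in all settings run. TGATGCAA was in 4 windows. Leaving out a library was not possible, because a line then lacks 1 condition and the fit has no residual degrees of freedom. Depth limits CHAC1 and STC2 in SK-MEL-28, with at most 35 and 21 counts, whose intervals reach past 1.5-fold.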
